A study of Homo sapiens with 12 samples.

Results

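The unfolded protein response and the protein folding machinery of the endoplasmic reticulum (ER) were examined as a set of 35 genes among the 36866 genes listed in the deposited table. The members were taken by gene name. They are 4 genes of stress sensing (3 sensors and the transcription factor XBP1), 8 chaperones of the HSP70 and HSP90 classes with their J proteins, 7 lectin chaperones and disulfide bond enzymes, 2 secreted ER stress proteins, 8 genes of ER-associated degradation (ERAD) and 6 genes of translocation, signal peptide handling and vesicle transport. The targets of the ATF4 arm were left out by the rule. All 35 members were found. Messenger RNA was sequenced in 12 libraries from THP-1 and U-937 cells, both established human myeloid leukemia cell lines of monocytic character, and each line was given honokiol, a biphenolic compound of magnolia bark, or the solvent DMSO for 24 h. The groups were DMSO-treated THP-1, honokiol-treated THP-1, DMSO-treated U-937 and honokiol-treated U-937, with 3 libraries each. The labels list honokiol at 20 and 35 μM and DMSO at 0.1% without tying a dose to a line, so that dose and line cannot be told apart in any comparison of the responses. Nothing in the labels says that the libraries of a group came from separate cultures, and p-values measure only the spread between these libraries, which may be technical.

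The unfolded protein response adjusts the folding capacity of the ER to its load. Unfolded proteins in the ER lumen activate 3 membrane sensors: IRE1 (gene ERN1) splices XBP1 mRNA into the form that encodes an active transcription factor, ATF6 is cut in the Golgi to release another, and PERK (gene EIF2AK3) phosphorylates eIF2α, slows translation and favors ATF4. XBP1 and ATF6 raise the transcription of chaperones, of oxidoreductases that form disulfide bonds, and of the ERAD machinery that sends misfolded proteins back to the cytosol for the proteasome. The values reported here are gene totals, so spliced and unspliced XBP1 mRNA, the cutting of ATF6 and the activity of PERK were not measured. Myeloid cells make secreted and granule proteins and keep many of these genes on without stress.

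ATF6 and XBP1 are known to act through short promoter elements, and these letters were looked for in RefSeq promoter windows (assembly GRCh38.p14, 250 bases before to 50 bases after a transcript start), which were given for 32 of the 35 members and not for DERL1, PDIA3 or SEC24D. The ER stress element (ERSE), CCAAT followed after 9 bases by CCACG on either strand, was found in the windows of 8 members (ERO1B, PDIA6, CANX, HSPA5, HSP90B1, CALR, XBP1 and CRELD2). This is 25% of the 32, against 25 of all 27305 genes (0.0916%) and 27 of 35116 windows (0.0769%). ERSE-II, ATTGG followed after 1 base by CCACG, was found in HERPUD1, HYOU1 and SDF2L1, against 19 of all windows (0.0541%). Together these 11 members (34.4% of the 32) were among 44 genes with either element in the whole table. The core of the element bound by XBP1, TGACG followed directly by TGG, was found in DNAJC10 and HYOU1, against 256 of all windows (0.729%), and in HYOU1 it overlapped an ERSE-II. Members were chosen as genes of the pathway that these elements are known from, so their share beside that of all genes tests nothing. A match is a description of letters, not a site of binding. The stretch below shows the 150 bases before the start of HSPA5, the main HSP70 chaperone of the ER, at chr9:125241344-125241493 on the minus strand, 5′ to 3′, with its ERSE in capitals.
HSPA5: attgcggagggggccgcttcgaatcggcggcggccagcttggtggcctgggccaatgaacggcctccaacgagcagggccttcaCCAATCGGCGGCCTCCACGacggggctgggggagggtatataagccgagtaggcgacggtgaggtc
The next sequences are the elements of members on which the results below turn, each with 6 bases on either side, read 5′ to 3′ on the gene's strand, so that an element in the reverse orientation reads CGTGG first. They lie at chr22:28800597-28800627 (XBP1, minus strand), chr1:236282177-236282207 (ERO1B, minus strand), chr19:12938378-12938408 (CALR, plus strand), chr12:103930210-103930240 and chr12:103930315-103930345 (HSP90B1, plus strand), chr16:56932019-56932041 (HERPUD1, plus strand), and chr11:119057374-119057396 and chr11:119057268-119057290 (HYOU1, minus strand).
XBP1, ERSE: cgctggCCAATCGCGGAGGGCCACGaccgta
ERO1B, ERSE: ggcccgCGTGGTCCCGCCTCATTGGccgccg
CALR, ERSE: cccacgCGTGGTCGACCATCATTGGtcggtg
HSP90B1, upstream ERSE: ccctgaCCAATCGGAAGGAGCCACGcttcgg
HSP90B1, downstream ERSE: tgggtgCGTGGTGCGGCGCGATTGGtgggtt
HERPUD1, ERSE-II: acgccgATTGGGCCACGttggga
HYOU1, upstream ERSE-II: ccgtgaCGTGGTCCAATcccagg
HYOU1, downstream ERSE-II: ctgggaCGTGGTCCAATgagtac

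**Figure D1:**
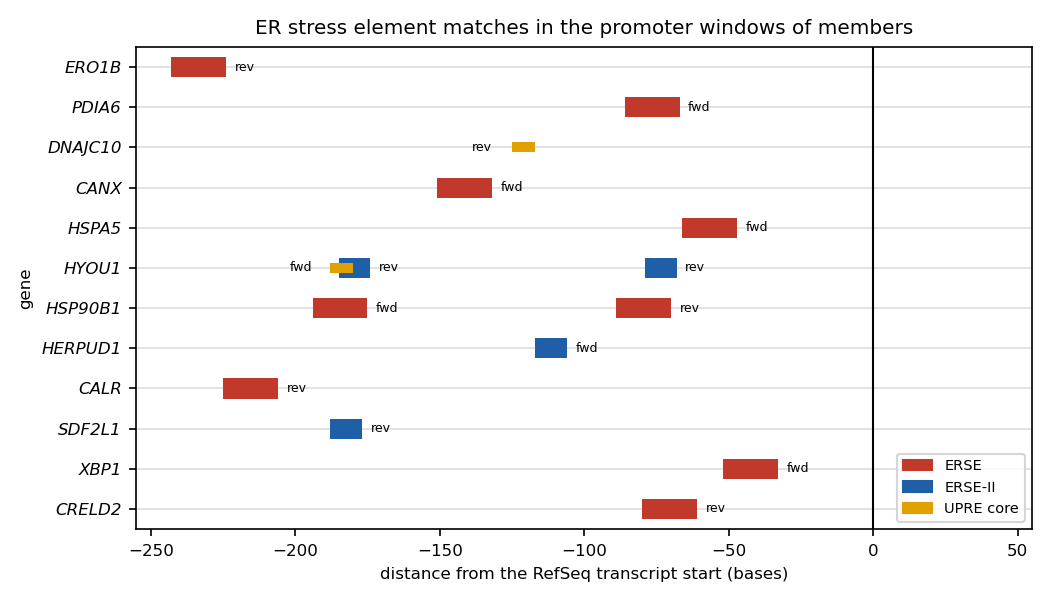
Positions of the element matches in the promoter windows of the 12 members that hold any, in bases from the RefSeq transcript start (vertical line at 0). Red bars mark ERSE, blue bars ERSE-II and yellow bars the core of the XBP1 element, with fwd or rev for the orientation on the gene's strand, and for CANX 1 of the 3 windows with the match is drawn. Of the matches drawn, that of ERO1B begins farthest from the start, 243 bases upstream, and that of XBP1 nearest, 52 bases upstream.

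The deposited counts summed to between 57406966 and 75065752 per library, and the lowest count of any member in any library was 476 (DNAJB9). Libraries of the same group correlated at r of 0.974 to 0.987 over the genes tested (log2 counts scaled to library size). Replicate 1 of DMSO stood apart in both lines, with 13.7% of the counts of THP-1 and 12.6% of those of U-937 from mitochondrial genes, against 5.61% to 7.55% in the other libraries. It held the lowest FPKM (fragments per kilobase of transcript, scaled to the reads of the library) among the 6 libraries of its line for 17 of the 35 members (THP-1) and for 22 of them (U-937), while 35.2% and 31.1% of all genes were lowest there. Replicate 3 of honokiol held the highest FPKM for 23 members (THP-1) and for 30 (U-937), against 22.4% and 17.8% of all genes. The part of these libraries in the results was not tested. Counts of members under a p-value limit are given with and without them below, and counts of non-overlapping groups only with them. The 10 myeloid marker genes were all listed and their summed FPKM was 350 to 769. LYZ, CD68 and SPI1 made up most of this sum. The U-937 libraries held little MPO (0.06 to 0.17), CD14 (0.17 to 2.15) and CSF1R (1.19 to 2.8). The THP-1 libraries held little CD36 (0.35 to 1.69). Single B and plasma cell markers reached such levels too, SDC1 up to 5.55 and PAX5 up to 3.77, both in THP-1. The marker lists of other cell types summed to at most 0.9 (T cell), 1.56 (erythroid), 1.39 (epithelial), 4.2 (fibroblast) and 11.2 (B and plasma cell), and of their genes COL3A1 was listed at an FPKM of 0 in every library, with a count of 2 in 1 of them.

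In DMSO the members spanned a wide range of levels. In THP-1 the group mean ran from an FPKM of 1.85 for ERN1 to 890 for CALR, the calcium-binding lectin chaperone calreticulin, with a median over the 35 members of 27.6. In U-937 it ran from 1.80 for ERO1B to 621 for CALR, with a median of 20.5. The members together took 1.36%, 1.51% and 1.72% of the counts in the DMSO libraries of THP-1 and 1.60%, 1.60% and 2.05% with honokiol. In U-937 they took 0.869%, 1.27% and 1.08% with DMSO and 1.16%, 1.31% and 1.60% with honokiol. The groups overlapped in both lines. These are bulk libraries, in which fewer cells and less RNA per cell cannot be told apart.

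Honokiol was compared with DMSO in each line, which asks how the genes of the ER responded to the compound. In THP-1 cells no member passed an adjusted p-value of 0.05 in edgeR's quasi-likelihood test (0.0411% of the 14600 genes tested passed). At an unadjusted p under 0.05, 8 members were higher and 0 were lower with honokiol, where 6.84% of all genes were higher and 6.22% lower. The 8 were ERO1B, EDEM1, SEL1L, HSPA5, HERPUD1, MANF, HYOU1 and SEC24D. The log2 fold change was above 0 for 25 of the 35 (49.9% of all genes), with a median of 0.10 against -0.00 for all genes. For 8 members all 3 honokiol libraries lay above all 3 DMSO libraries (13.0% of all genes), and for 1, SEC61A1, they lay below (7.62% of all genes). DESeq2 called 2 members, ERO1B (adjusted p = 0.0012) and EDEM1 (adjusted p = 0.0029), where it called 500 of the 14600 genes. Limma on log2(FPKM + 0.5) called 0 members. Without honokiol replicate 3, 3 members were at an unadjusted p under 0.05, 17 were above 0 and the median was -0.02. Without DMSO replicate 1 the count was 7 and the median 0.07, without DMSO replicate 3 the count was 5, and without both DMSO replicate 1 and honokiol replicate 3 it was 4, with a median of 0.00.

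In U-937 cells no member passed an adjusted p of 0.05 in edgeR's test (0.0947% of the 13726 genes tested passed). At an unadjusted p under 0.05, 9 members were higher and 0 lower with honokiol, where 8.25% of all genes were higher and 8.44% lower. The 9 were EIF2AK3, HERPUD1, ERO1B, EDEM1, ERN1, SEL1L, PDIA4, HSPA5 and SEC61B. The log2 fold change was above 0 for 33 of the 35 (52.0% of all genes), CALR and ATF6 being the exceptions, and the median was 0.30 against 0.02 for all genes. For both exceptions the mean FPKM was slightly higher with honokiol, so the sign depended on the measure. It was 630 against 621 with DMSO for CALR and 2.99 against 2.86 for ATF6. For 8 members the honokiol libraries all lay above the DMSO libraries (16.7% of all genes), and for 0 below (7.50% of all genes). DESeq2 called 3 members, EIF2AK3 (adjusted p = 0.0059), HERPUD1 (adjusted p = 0.021) and ERO1B (adjusted p = 0.023), where it called 790 of the 13726 genes. Limma on log2(FPKM + 0.5) called 0 members. Without honokiol replicate 3, 3 members were at an unadjusted p under 0.05, 29 were above 0 and the median was 0.20. Without DMSO replicate 1 the count was 6, 32 were above 0 and the median was 0.26. The count was 17 without DMSO replicate 2, with a median of 0.46, and 4 without DMSO replicate 3. Without both DMSO replicate 1 and honokiol replicate 3 it was 4, with a median of 0.14.

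**Figure D2:**
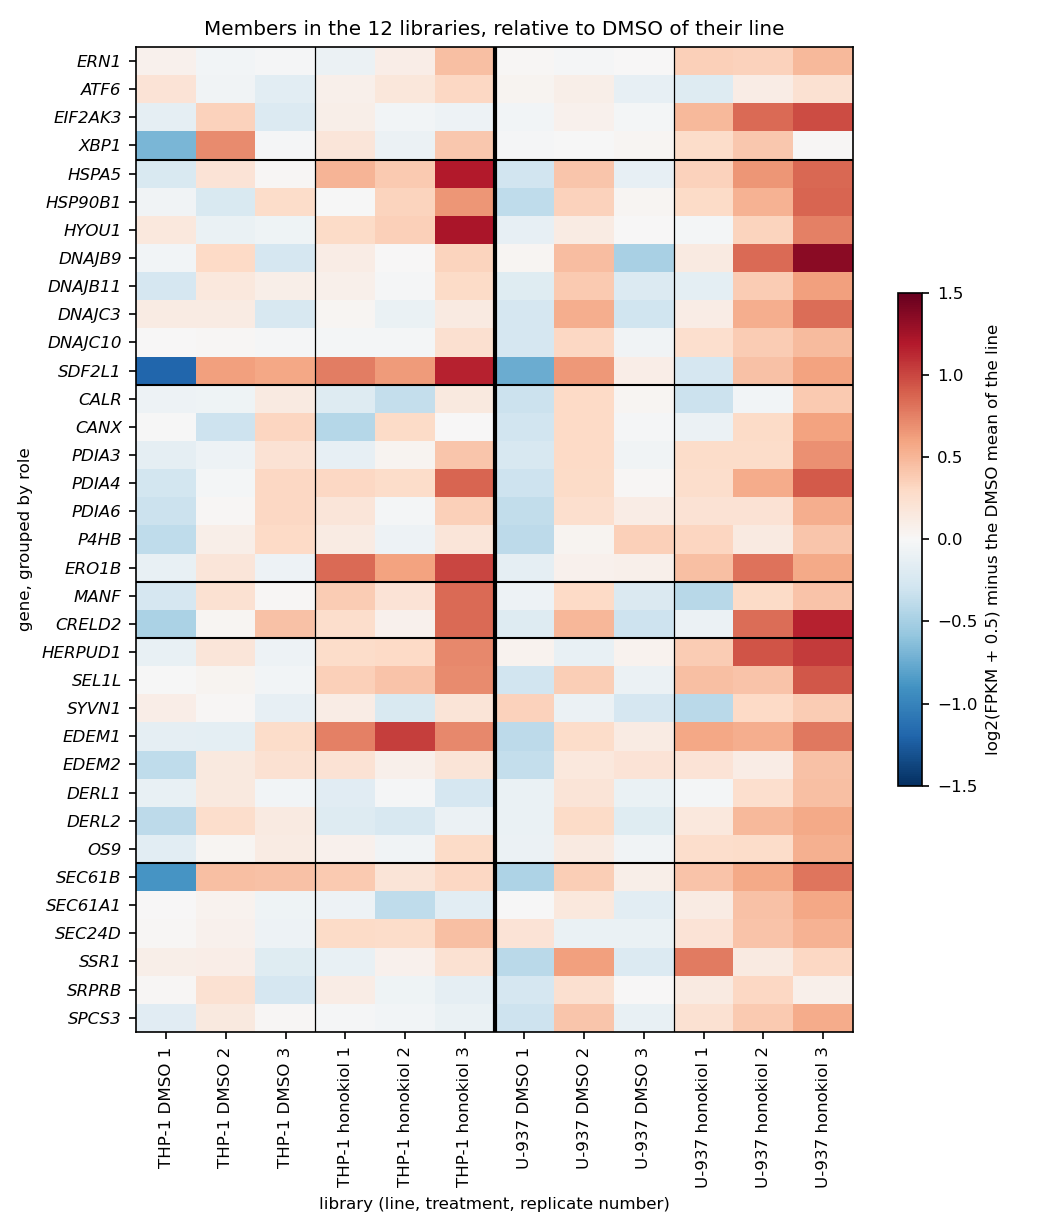
Level of each member (rows, grouped by role) in each of the 12 libraries (columns) as log2(FPKM + 0.5) minus the mean of the 3 DMSO libraries of the same line, red for higher and blue for lower. Honokiol replicate 3 is the reddest column in both lines, the highest of its line for 23 members (THP-1) and 30 members (U-937), and DMSO replicate 1 holds the lowest values for 17 and 22 members.

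EIF2AK3, the gene of PERK, was higher with honokiol in U-937 and not separated in THP-1. In U-937 its FPKM was 3.06, 3.34 and 3.08 with DMSO and 4.64, 6.1 and 6.7 with honokiol. All 3 honokiol libraries were above all DMSO libraries. The fold change was 1.73 (log2 0.79, SE 0.18, adjusted p = 0.113 from edgeR, as for all p-values that follow). Fold changes come from edgeR's scaled counts, so they need not equal the ratio of the FPKM values printed. In THP-1 EIF2AK3 was at 2.85, 4.19 and 2.69 with DMSO and 3.41, 3.09 and 3 with honokiol, and the groups overlapped (log2 fold change -0.09, SE 0.20, adjusted p = 0.869). ERN1, which encodes the kinase and endonuclease IRE1, was at 2.52, 2.44 and 2.49 in the DMSO libraries of U-937 and at 3.31, 3.28 and 3.67 in the honokiol libraries. The 2 groups did not overlap, and the fold change was 1.29 (log2 0.37, SE 0.14, adjusted p = 0.244). In THP-1 ERN1 was at 1.95, 1.79 and 1.82 with DMSO and at 1.72, 2.02 and 2.71 with honokiol, with only honokiol replicate 3 far above the rest (log2 fold change 0.15, SE 0.20, adjusted p = 0.756).

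ATF6 overlapped between the treatments in both lines. Its FPKM in THP-1 was 16.92, 14.08 and 13.01 with DMSO and 15.44, 16.53 and 18.22 with honokiol (log2 fold change 0.12, SE 0.16, adjusted p = 0.768). In U-937 it was 2.94, 3.05 and 2.58 with DMSO and 2.43, 3.11 and 3.43 with honokiol (log2 fold change -0.02, SE 0.18, adjusted p = 0.967). XBP1 varied widely among the DMSO libraries of THP-1, at 19.55, 52.37 and 31.28, and the honokiol libraries at 36.12, 30.01 and 42.22 were inside that span (log2 fold change 0.03, SE 0.30, adjusted p = 0.970). In U-937 the DMSO libraries were tight at 44.34, 44.61 and 45.69 and the honokiol libraries were at 54.32, 59.65 and 45.51 (log2 fold change 0.15, SE 0.13, adjusted p = 0.600). The treatments overlapped for total XBP1 mRNA in both lines, and on the log2 scale its 95% interval was -0.66 to 0.73 for THP-1 and -0.15 to 0.45 for U-937.

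Of the 8 chaperones and J proteins, 7 were above 0 on the log2 scale in THP-1 and 8 in U-937, with medians of 0.19 and 0.35. HSPA5, also called BiP, binds unfolded chains in the ER lumen and holds the sensors inactive. In THP-1 its FPKM was 179.47, 243.28 and 212.76 with DMSO and 299.17, 275.66 and 481.69 with honokiol. Every honokiol library was above every DMSO library, and replicate 3 was far above the other two. The fold change was 1.60 (log2 0.68, SE 0.23, adjusted p = 0.293), and without honokiol replicate 3 the log2 fold change was 0.40. In U-937 HSPA5 was at 171.51, 279.81 and 192.78 with DMSO and at 266.36, 331.66 and 380.39 with honokiol. The groups overlapped through DMSO replicate 2, and the fold change was 1.43 (log2 0.52, SE 0.21, adjusted p = 0.281). HYOU1, a large relative of HSP70 that exchanges the nucleotide of HSPA5, was at 63.4, 52.82 and 54.37 in the DMSO libraries of THP-1 and at 69.08, 72.56 and 132.86 with honokiol (log2 fold change 0.62, SE 0.26, adjusted p = 0.371). Its groups did not overlap, and the size of the difference came mostly from replicate 3. DNAJB9, a J protein that partners HSPA5 at IRE1, had the largest log2 fold change of any member in U-937, 0.80, with an SE of 0.38. Its U-937 libraries were at 3.7, 5.15 and 2.43 with DMSO and at 4.03, 6.93 and 9.97 with honokiol, and they overlapped (adjusted p = 0.340).

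HSP90B1, the HSP90 of the ER, was at 269.56, 238.5 and 337.91 with DMSO and 278.36, 351.85 and 443.05 with honokiol in THP-1 (log2 fold change 0.29, SE 0.21, adjusted p = 0.574). In U-937 it was at 79.92, 132.64 and 106.13 and at 126.72, 149.88 and 190.79 (log2 fold change 0.47, SE 0.22, adjusted p = 0.322). The treatments overlapped in both lines. SDF2L1, a partner of the ER J proteins, was at 15.12 in DMSO replicate 1 of THP-1 against 54.02 and 52.98 in the other two, and at 60.25, 54.94 and 79.12 with honokiol. Its groups were apart, but 1 DMSO library set most of its log2 fold change of 0.64 (SE 0.40, adjusted p = 0.510). DNAJB11, a J protein of the lumen, was at 22.92, 30.73 and 29.12 with DMSO and 28.88, 27.02 and 33.47 with honokiol in THP-1, and at 12.18, 18.33 and 11.93 and 12.52, 18.25 and 21.58 in U-937 (log2 fold changes 0.06 and 0.22). DNAJC3, which inhibits PERK, and DNAJC10, a reductase, had log2 fold changes of -0.04 and 0.01 in THP-1 and of 0.40 and 0.29 in U-937, with overlap in both lines.

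Of the 7 lectin chaperones and disulfide bond enzymes, ERO1B alone had honokiol libraries above all DMSO libraries, and it had them in both lines. ERO1B, an oxidase that recharges protein disulfide isomerases, had the smallest p-value of all members in THP-1. Its FPKM there was 2.88, 3.65 and 2.96 with DMSO and 6.08, 5.06 and 6.79 with honokiol. The lowest honokiol library was well above the highest DMSO library, and the fold change was 1.82 (log2 0.86, SE 0.17, adjusted p = 0.136). In U-937 ERO1B was at 1.58, 1.9 and 1.91 with DMSO and at 2.62, 3.53 and 2.91 with honokiol, again without overlap, with a fold change of 1.58 (log2 0.66, SE 0.17, adjusted p = 0.148). With any single library left out, its log2 fold change stayed between 0.77 and 0.97 (THP-1) and between 0.55 and 0.75 (U-937). The gene lies across from GPR137B on the opposite strand, and the strand setting of the counts is not given in the sources used here. PDIA4, a protein disulfide isomerase, was at 59.63, 90.39 and 74.47 with DMSO and 88.72, 108.72 and 139.68 with honokiol in U-937 (log2 fold change 0.50, SE 0.21, adjusted p = 0.278), with honokiol replicate 1 below the highest DMSO library. In THP-1 it was at 99.96, 119.2 and 150.45 and at 150.9, 146.6 and 222.91 (log2 fold change 0.44, SE 0.20, adjusted p = 0.403).

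CALR, the most abundant member, was at 844.39, 846.7 and 977.92 with DMSO and 774.78, 695.45 and 986.25 with honokiol in THP-1, and at 488.58, 750.21 and 625.02 and 490.05, 594.53 and 804.73 in U-937. The treatments overlapped in both, with log2 fold changes of -0.18 (SE 0.17) and -0.06 (SE 0.22). CANX, the membrane-bound lectin chaperone calnexin, gave -0.09 and 0.19. The isomerases PDIA3, PDIA6 and P4HB gave 0.07, 0.11 and 0.01 in THP-1 and 0.32, 0.23 and 0.19 in U-937, all with overlapping libraries. Pseudogenes of PDIA3 were listed with an FPKM of up to 26.4 (PDIA3P2) and 12.5 (PDIA3P1), so the PDIA3 counts are uncertain. Of the secreted ER stress proteins, MANF had a log2 fold change of 0.45 (SE 0.19, adjusted p = 0.369) in THP-1 and of 0.04 (SE 0.24, adjusted p = 0.959) in U-937, and CRELD2 of 0.36 (SE 0.26) and 0.62 (SE 0.35).

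**Figure D3:**
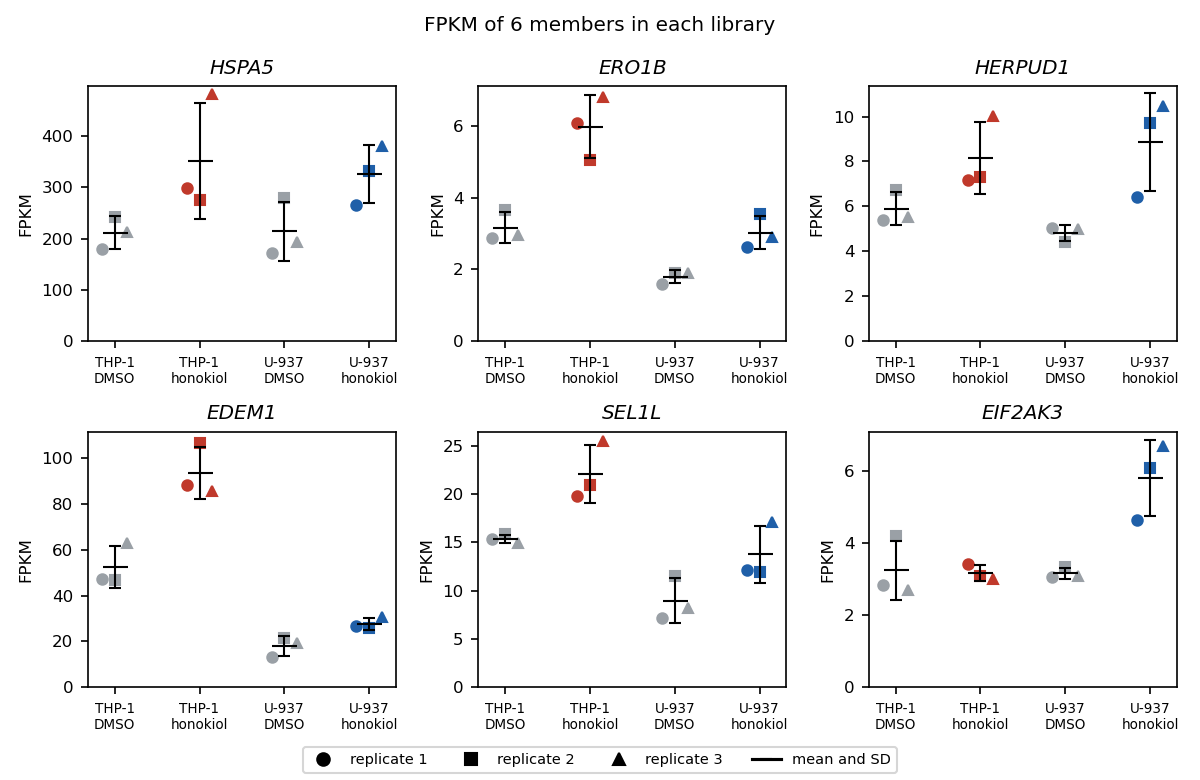
FPKM in each library (vertical axes from 0) of HSPA5, ERO1B, HERPUD1, EDEM1, SEL1L and EIF2AK3, with marker shape for the replicate number and bars for the group mean and SD (n = 3). The honokiol libraries lie above the DMSO libraries in both lines for ERO1B, HERPUD1, EDEM1 and SEL1L, in THP-1 for HSPA5 and in U-937 for EIF2AK3.

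Of the 8 ERAD genes, 5 were above 0 on the log2 scale in THP-1 and 8 in U-937, with medians of 0.07 and 0.32, and none passed adjustment in edgeR's test. HERPUD1, EDEM1 and SEL1L were at an unadjusted p under 0.05 in both lines. HERPUD1 recruits the ubiquitin ligase complex of the ER membrane. Its FPKM in U-937 was 5.02, 4.42 and 5.01 with DMSO and 6.4, 9.72 and 10.47 with honokiol. The groups were apart, with a fold change of 1.73 (log2 0.79, SE 0.21, adjusted p = 0.148). In THP-1 HERPUD1 was at 5.4, 6.73 and 5.55 with DMSO and 7.19, 7.31 and 10.02 with honokiol, also apart (log2 fold change 0.42, SE 0.17, adjusted p = 0.364). Without honokiol replicate 3 the log2 fold changes were 0.64 in U-937 and 0.25 in THP-1. EDEM1, which marks misfolded glycoproteins by trimming mannose, was at 47.34, 46.69 and 63.02 with DMSO and 88.21, 106.8 and 85.88 with honokiol in THP-1. These groups were far apart, at a fold change of 1.73 (log2 0.79, SE 0.16, adjusted p = 0.162), and here replicate 3 was the lowest of the honokiol libraries. In U-937 EDEM1 was at 13.21, 21.39 and 19.11 and at 26.6, 25.9 and 30.71, apart as well (log2 fold change 0.55, SE 0.18, adjusted p = 0.198). SEL1L, the scaffold of the ligase complex, was at 15.29, 15.83 and 14.96 with DMSO and 19.82, 20.89 and 25.49 with honokiol in THP-1 (log2 fold change 0.46, SE 0.14, adjusted p = 0.264). In U-937 it was at 7.12, 11.53 and 8.21 and at 12.17, 11.97 and 17.13 (log2 fold change 0.54, SE 0.22, adjusted p = 0.273), and in both lines every honokiol library was above every DMSO library.

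For the ligase and the derlins the treatments overlapped. SYVN1, the ubiquitin ligase that SEL1L holds, had log2 fold changes of -0.02 (SE 0.17) in THP-1 and 0.01 (SE 0.27) in U-937. The derlins, which form part of the exit channel, were below 0 in THP-1 and above 0 in U-937. DERL2 was at 2.09, 3.58 and 3.26 with DMSO and 2.48, 2.38 and 2.7 with honokiol in THP-1 (log2 fold change -0.28, SE 0.19), and at 2.57, 3.51 and 2.4 and 3.17, 4.12 and 4.37 in U-937 (0.37, SE 0.21). DERL1 was at 8.33, 10.1 and 8.81 and 7.97, 8.91 and 7.53 in THP-1 (-0.21, SE 0.13), and at 11.53, 14.2 and 11.52 and 12.11, 14.86 and 17.03 in U-937 (0.15, SE 0.16). The signs differed between the lines for both derlins, and the difference is tested below. OS9, a lectin that reads the trimmed glycans, was at 69.59, 79.71 and 85.21 and 81.58, 74.92 and 94.79 in THP-1 (0.05, SE 0.13). In U-937 OS9 was at 24.25, 28.34 and 24.71 with DMSO and at 30.86, 31.31 and 37.33 with honokiol, apart (log2 fold change 0.28, SE 0.14, adjusted p = 0.358). EDEM2, a further mannosidase, gave log2 fold changes of 0.10 and 0.16.

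The translocation and vesicle genes had a median of -0.05 in THP-1, with 3 of the 6 above 0, and a median of 0.29 in U-937, with 6 of the 6 above 0. SEC61A1, the pore of the translocon, was at 114.11, 117.73 and 108.1 with DMSO and 107.67, 86.61 and 101.08 with honokiol in THP-1, the only member whose honokiol libraries all lay below the DMSO libraries (log2 fold change -0.26, SE 0.14, adjusted p = 0.457). In U-937 it was at 90.56, 101.28 and 81.07 and at 98.35, 122.93 and 135.58, with overlap and a log2 fold change of 0.30 (SE 0.17, adjusted p = 0.418). SEC61A1 overlaps MGLL and RUVBL1, which lie on the opposite strand. SEC61B, a small subunit of the same channel, was at 27.5, 49 and 40.53 with DMSO and 51.2, 56.39 and 66.71 with honokiol in U-937 (log2 fold change 0.50, SE 0.21, adjusted p = 0.283), which were apart. In THP-1 its DMSO replicate 1 was at 15.92 against 41 and 40.51 in the other two, and the honokiol libraries were at 39.28, 34.09 and 37.12. SEC24D, a cargo adaptor of COPII vesicles, had log2 fold changes of 0.29 (SE 0.13, adjusted p = 0.381) in THP-1, with groups apart, and 0.30 (SE 0.17) in U-937. SPCS3, a subunit of the signal peptidase, was at 21.2, 26.48 and 24.19 and 23.56, 23.18 and 22.18 in THP-1 and at 16.08, 26.91 and 18.43 and 23.56, 26.44 and 29.76 in U-937 (log2 fold changes -0.11 and 0.29). SSR1, of the translocon-associated complex, gave 0.00 and 0.29, and SRPRB, of the receptor of the signal recognition particle, gave -0.10 and 0.08.

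**Figure D4:**
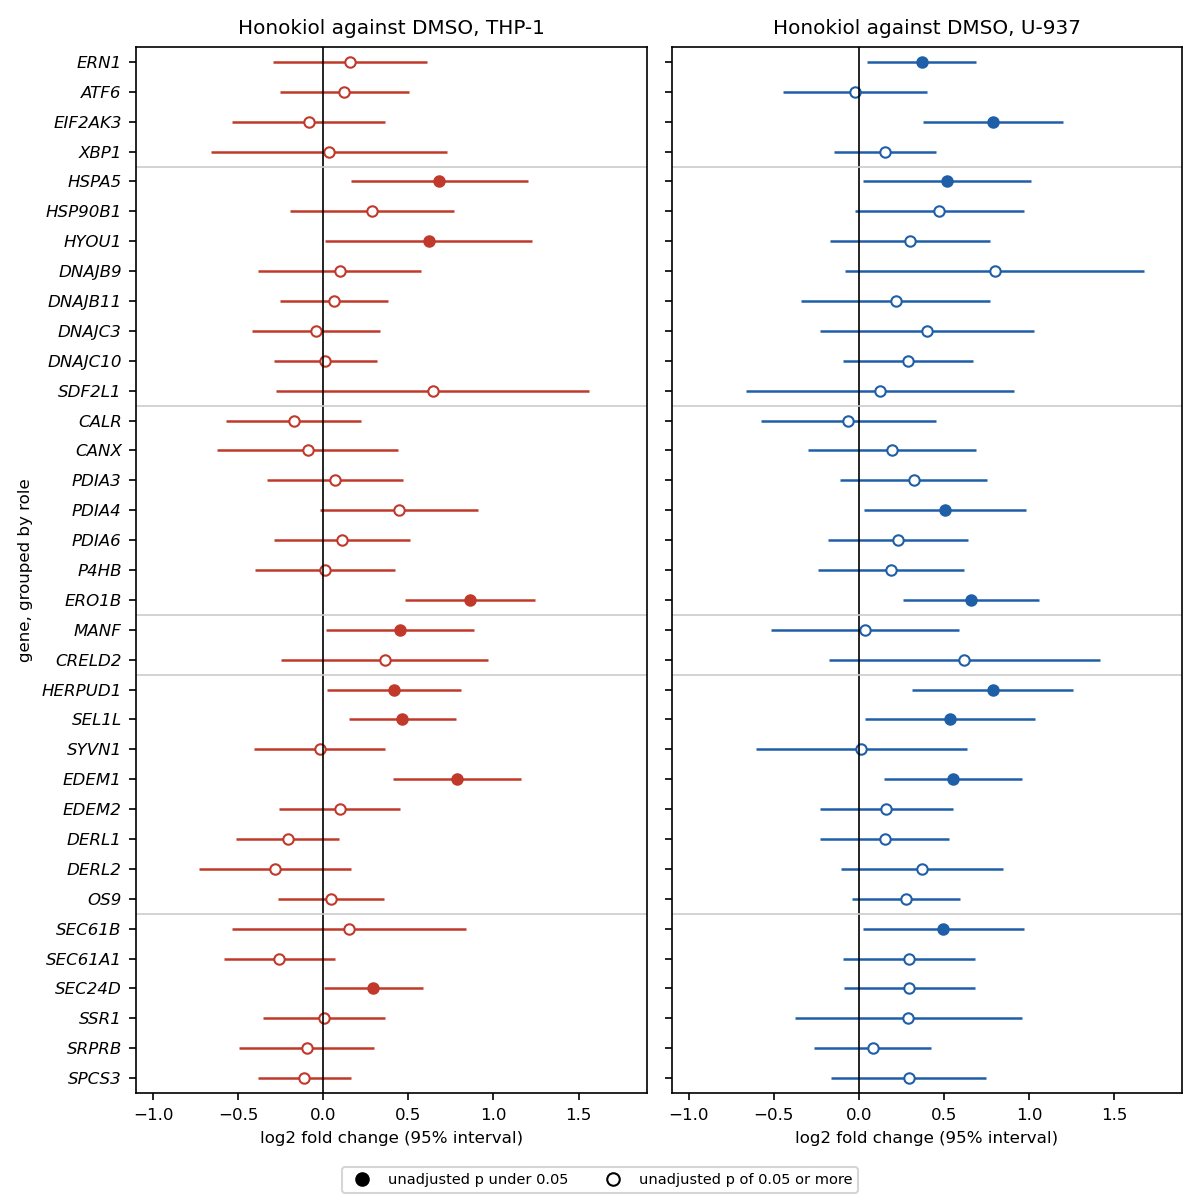
Log2 fold change of honokiol against DMSO with its 95% interval from edgeR for the 35 members, grouped by role, in THP-1 (left, red) and U-937 (right, blue). Filled points have an unadjusted p under 0.05, which 8 members reached in THP-1 and 9 in U-937, all to the right of 0, and no member passed after adjustment over all genes.

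The values of the lines were also read together, over the 12343 genes tested in both. At an unadjusted p under 0.05, HSPA5, ERO1B, HERPUD1, SEL1L and EDEM1 were higher in both, 5 of the 8 of THP-1 and 5 of the 9 of U-937 (1.75% of all genes were higher in both). For ERO1B, HERPUD1, SEL1L and EDEM1 the honokiol libraries were also above all DMSO libraries in both lines (3.91% of all genes), and for 24 members the log2 fold change was above 0 in both (31.0% of all genes). The members with an ERSE or ERSE-II match were set beside the others as a description. In THP-1 the 11 with a match had a median log2 fold change of 0.36 and a range of -0.18 (CALR) to 0.86 (ERO1B), and the 21 with a window but no match had a median of 0.05. In U-937 the medians were 0.30 and 0.29. EDEM1 and SEL1L, among the members with the smallest p-values in THP-1, had no match, and CALR and XBP1 had a match and overlapping treatments.

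Whether the response differed between the lines was tested as an interaction over the 12 libraries. No member passed an adjusted p of 0.05 in edgeR's test (0.111% of the 16283 genes tested passed). At an unadjusted p under 0.05, the log2 fold change of U-937 was above that of THP-1 for 2 members (4.82% of all genes) and below it for 0 (4.54% of all genes), and DESeq2 and limma on log2(FPKM + 0.5) called 0 after adjustment. These were EIF2AK3, with a difference of 0.87 on the log2 scale (SE 0.27, 95% interval 0.28 to 1.45, adjusted p = 0.351), and SEC61A1, with 0.54 (SE 0.22, 95% interval 0.07 to 1.02, adjusted p = 0.470), for which the log2 fold changes had opposite signs (-0.26 for THP-1, 0.30 for U-937). The next were DERL2 (0.64, 95% interval -0.00 to 1.28), DERL1 (0.35, 95% interval -0.11 to 0.81) and SPCS3 (0.39, 95% interval -0.13 to 0.91). The difference was positive for 27 of the 35 members (50.8% of all genes) with a median of 0.17 against 0.01 for all genes. Single libraries moved these values. Without U-937 honokiol replicate 3 the difference was positive for 18 members and the median was 0.07, and without THP-1 honokiol replicate 3 it was positive for 30 and the median was 0.26. The median was 0.28 without U-937 DMSO replicate 2, 0.11 without THP-1 honokiol replicate 1 and 0.09 without THP-1 honokiol replicate 2. Without the honokiol replicate 3 libraries of both lines, 0 members were at an unadjusted p under 0.05 and the median was 0.15, and it was 0.06 with both DMSO replicate 1 libraries left out as well. With U-937 DMSO replicate 2 left out the count was 7, with U-937 honokiol replicate 1 left out it was 6, and it was 1 without THP-1 honokiol replicate 2 or without U-937 DMSO replicate 3, honokiol replicate 2 or honokiol replicate 3. Intervals were wide: for HSPA5 the difference was -0.18 (95% interval -0.90 to 0.55), for HERPUD1 0.36 (-0.24 to 0.97), for ERN1 0.20 (-0.31 to 0.72), for ATF6 -0.16 (-0.69 to 0.37) and for XBP1 0.11 (-0.68 to 0.90).

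More members were called between the lines than between the treatments. The same held over all genes, of which 0.0411% (THP-1) and 0.0947% (U-937) were called between the treatments. Between the DMSO libraries, 12 members were lower in U-937 than in THP-1 at an adjusted p under 0.05 (28.5% of the 16283 genes tested) and 2 were higher (24.4%). With the further limit of an absolute log2 fold change over 1, 5 were lower (19.7% of all genes) and 0 higher (14.4%). The libraries of 13 members did not overlap with U-937 lower (29.0% of all genes), and those of 5 with U-937 higher (27.7%). The median over the members was -0.26, against -0.05 for all genes, and 11 of the 35 were above 0 (48.4% of all genes). The shares among the members of lower and of higher calls, 34.3% and 5.7%, stand beside these backgrounds. The comparison is of a single line with another, and the libraries of a line share all else that sets the lines apart.

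ATF6 was furthest from its THP-1 level, with a fold change of 0.188 (log2 -2.41, SE 0.18, adjusted p = 6.93e-07). Its DMSO values were 13.01 to 16.92 in THP-1 and 2.58 to 3.05 in U-937. The other sensors and XBP1 did not pass: ERN1 0.38 (SE 0.17, adjusted p = 0.0791), EIF2AK3 -0.08 (SE 0.19) and XBP1 0.36 (SE 0.26). A called difference lay in OS9 (-1.64, SE 0.13, adjusted p = 1.23e-06), EDEM1 (-1.60, SE 0.18, adjusted p = 1.32e-05) and SEL1L (-0.83, SE 0.19, adjusted p = 0.00324) among the ERAD genes, whereas HERPUD1 (-0.33) and SYVN1 (-0.39) did not pass. DERL1 was higher in U-937 (0.41, SE 0.15, adjusted p = 0.0370). Of the chaperones, HSP90B1 (-1.46, SE 0.23, adjusted p = 0.000203) and DNAJB11 (fold change 0.499, SE of the log2 fold change 0.21, adjusted p = 0.00183) were lower in U-937 and DNAJC3 was higher (0.72, SE 0.25, adjusted p = 0.0279). HSPA5 differed by -0.02 (SE 0.24, 95% interval -0.54 to 0.49), whereas the fold change of HSP90B1 was 0.364.

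All 7 lectin chaperones and disulfide bond enzymes were below 0 in this comparison, and 6 of them were called lower in U-937: ERO1B (-0.86, SE 0.17, adjusted p = 0.000878), P4HB (-0.85, SE 0.18), PDIA4 (-0.76, SE 0.22), PDIA3 (-0.64, SE 0.19), CALR (-0.57, SE 0.21) and PDIA6 (-0.50, SE 0.18). CANX, at -0.26 (SE 0.24, adjusted p = 0.382), was not. Their adjusted p-values ran up to 0.0359. None of the secreted or translocation genes passed. The calls for ATF6, OS9, EDEM1, HSP90B1, ERO1B and DNAJB11 were kept with each of the 12 libraries left out in turn, and the calls higher in U-937 were not: without THP-1 DMSO replicate 3, or without U-937 DMSO replicate 2, 0 members were called higher. Without both DMSO replicate 1 libraries 10 were called lower and 2 higher.

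**Figure D5:**
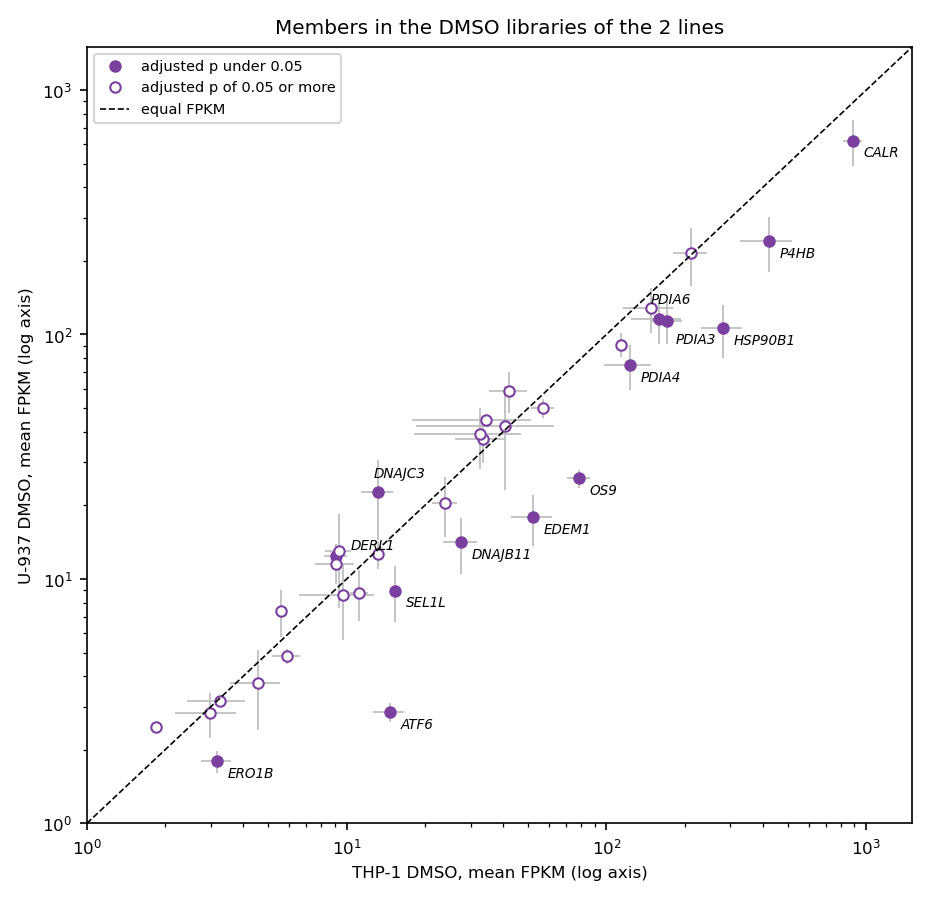
Mean FPKM of the 35 members in the DMSO libraries of THP-1 (horizontal) and U-937 (vertical), both on log axes, with bars for the SD (n = 3) and a dashed line at equal levels. Filled and named points have an adjusted p under 0.05 in edgeR's test, 12 below the line and 2 above it. ATF6 lies farthest below the line, and CALR is the most abundant in both.

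The wider pathway was read through 75 other genes, grouped by role, of which 74 were tested. In THP-1, 5 were higher (6.8%, against 6.84% of all genes) and 6 lower (8.1%, against 6.22%) at an unadjusted p under 0.05. There 0 were called, 32 were above 0 (43.2%, against 49.9% of all genes) and the median was -0.02. In U-937, 12 were higher (16.2%, against 8.25% of all genes) and 4 lower (5.4%, against 8.44%) at that limit. There 0 were called, 55 were above 0 (74.3%, against 52.0% of all genes) and the median was 0.21. Among the further folding genes, FKBP14, a prolyl isomerase, had a log2 fold change of 0.65 (SE 0.22) in THP-1. SIL1, a nucleotide exchange factor of HSPA5, had 0.49 (SE 0.17) there. HSPA13 and the testis-type calnexin relative CLGN had 0.83 (SE 0.20) and 0.84 (SE 0.26) in U-937. ERO1A, the paralog of ERO1B, was lower in every honokiol library than in any DMSO library of its line, with -0.47 (SE 0.20, adjusted p = 0.369) in THP-1 and -0.39 (SE 0.12, adjusted p = 0.200) in U-937. Of the further ERAD genes, AUP1 had -0.48 (SE 0.15) in THP-1 and -0.41 (SE 0.16) in U-937. Of the translocation and glycosylation genes, STT3A, a catalytic subunit of the oligosaccharyltransferase, had -0.55 (SE 0.16) in THP-1, and TRAM1 and the signal peptidase subunit SEC11C had 0.69 (SE 0.17) and 0.70 (SE 0.22) in U-937. MBTPS1, the protease that makes the first cut in ATF6, had -0.61 (SE 0.16) in THP-1. MBTPS2, which makes the next cut, had 0.53 (SE 0.17) in U-937, and LMAN1, a cargo receptor, and SEC23B, a COPII coat protein, had 0.47 (SE 0.16) and 0.39 (SE 0.14). All 9 genes of sensor processing and related transcription factors were below 0 in THP-1, with a median of -0.20, and 4 of the 9 were above 0 in U-937.

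The ATF4 arm, which the rule left out of the set, is given beside it in its 10 genes. All 10 were above 0 in both lines (31.0% of the genes tested in both). At an unadjusted p under 0.05, 6 were higher in THP-1 (6.84% of all genes) and 7 in U-937 (8.25%), and 0 were called. The median log2 fold change was 0.96 for THP-1 and 0.89 for U-937, where the 35 members had 0.10 and 0.30. DDIT3, which encodes the stress factor CHOP, had 1.36 (SE 0.32, adjusted p = 0.176) and 1.47 (SE 0.23, adjusted p = 0.0637). ASNS, asparagine synthetase, had 1.36 (SE 0.27, adjusted p = 0.144) and 1.15 (SE 0.23, adjusted p = 0.0897). ATF4 itself had 0.22 (SE 0.19) and 0.57 (SE 0.17). The largest value among the 35 members in either line, 0.86 for ERO1B in THP-1, was below the median of this list in THP-1. The list holds genes whose response was known from earlier results of these data, and the difference between the lists was not tested.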

How the data were processed

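Poly(A) RNA of 12 libraries was sequenced, and the authors deposited 1 table of FPKM values and counts by gene and library. The deposited counts are whole numbers that were not normalized. The counts 4, 8 and 3 occur 17264, 9165 and 6764 times, and how a count relates to a sequenced fragment is not given in the sources used here. The submitters' processing notes name HISAT2 2.0, StringTie 1.3.0, Bowtie 0.12.2 and the mouse build mm8, without roles. The coordinates of all 35 members overlapped the gene of that name in GENCODE 29 (GRCh38), 12 of them identically. The sample totals and levels come from these columns. A gene was tested if 3 or more libraries of a fit reached an FPKM of 0.5, with edgeR 4.0.16 (quasi-likelihood test, TMM, Benjamini-Hochberg over all genes; R 4.3.3). Each line was fitted alone, and the difference of responses and the DMSO lines in 1 fit of 12 libraries. A call is an adjusted p under 0.05. SE is the log2 fold change divided by the root of F. FPKM values, without TMM scaling, gave levels and overlap, and TMM-scaled counts gave the fold changes of edgeR. DESeq2 1.42.0, limma 3.58.1, other filters, scalings and left-out libraries were alternatives. Values in every library are given for HSPA5, XBP1, ERN1, ATF6, EIF2AK3 and HERPUD1, and for the 5 members with the smallest p-value in each comparison and any called past a log2 fold change of 1. Further members given by library were picked with their values in view. Members and lists were chosen with earlier results of these data known. Raw reads and protein sequences were not used here.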

Additional observations from a re-analysis of the deposited data

How the results depend on the processing

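The counts of members at an adjusted p under 0.05 for honokiol stayed at 0 in both lines and in their difference under every alternative run except DESeq2, which gave 2 in THP-1 and 3 in U-937. For U-937 DMSO against THP-1 DMSO, 10 to 13 members were called lower under all alternatives, and the 2 called higher became 1 with no filter on low genes and 1 on genes past the limit in both lines, and ranged from 0 to 3 with a library left out (1 without THP-1 DMSO replicate 1, THP-1 DMSO replicate 2 or THP-1 honokiol replicate 1). Over all genes, 0 to 500 were called for THP-1, 0 to 790 for U-937, 0 to 244 for their difference and 6032 to 9645 between the lines, and the highest counts for honokiol were those of DESeq2.

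Directions of small values turned. Over the fits without 1 library, log2 fold changes for THP-1 were -0.22 to 0.44 (XBP1), -0.22 to 0.11 (EIF2AK3) and -0.036 to 0.29 (ERN1), and XBP1 was at -0.34 without DMSO replicate 1 and honokiol replicate 3 (-0.33 within 1 fit of both lines). In U-937 ATF6 ran from -0.15 to 0.11 and was at 0.048 with limma at a pseudocount of 0.5 and at 0.053 at 0.1. The difference between lines ran from -0.31 to 0.36 for XBP1 and from -0.33 to 0.11 for HSPA5. Between the DMSO lines HSPA5 ran from -0.25 to 0.083, and was at 0.022 without both DMSO replicate 1 libraries and at 0.019 without these and honokiol replicate 3, and EIF2AK3 ran from -0.23 to 0.10. XBP1 in that comparison was 0.76 (adjusted p = 0.00741) without THP-1 DMSO replicate 2. The cause was not tested.

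Correlations of the deviations of same-numbered libraries were -0.20 to 0.14 between the treatments of THP-1, -0.16 to -0.10 between those of U-937, 0.06 to 0.19 between the lines in DMSO and -0.05 to 0.02 between the lines with honokiol. No pair of groups had every correlation over 0.1, so the numbers were not taken to pair the samples. Differently numbered libraries gave -0.10 to 0.27 between the treatments of THP-1 and -0.15 to 0.29 between those of U-937. Between the lines they gave -0.19 to 0.07 in DMSO and -0.03 to 0.05 with honokiol. DMSO replicate 1 stood apart in both lines in its mitochondrial share, and whether libraries of the same number shared a batch was not tested. With a replicate block, 0 members were called in either line and in the difference, 12 lower and 2 higher between the lines, and the members higher at an unadjusted p under 0.05 numbered 5 for THP-1 (8 without the block) and 7 for U-937 (9 without it).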

Other observations

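Of the 74 other genes of the pathway that were tested, 0 were called for the difference of the responses in edgeR's test. At an unadjusted p under 0.05, 5 had a log2 fold change for honokiol in U-937 above that in THP-1. This share of 6.8% was near the 4.82% of all genes. TRAM1 differed by 0.89 on the log2 scale (SE 0.23, adjusted p = 0.269), STT3A by 0.82 (SE 0.22, adjusted p = 0.279) and SEC11C by 0.93 (SE 0.30, adjusted p = 0.365). SPCS2 and HSPA13 were the other two. HSPA13 was above 0 in both lines, and the other 4 were below 0 in THP-1 and above 0 in U-937. TRAM1 helps nascent chains enter the translocon, STT3A transfers glycans to them and SEC11C removes signal peptides. These genes were named after their values were seen, and dose and line cannot be told apart here.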
